A study of Mus musculus with 6 samples.

Results

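The EGR, IER and serum response genes are 10 genes taken by their symbols: EGR1, EGR2, EGR3, IER2, IER3, IER5, SRF, BTG1, BTG2 and ZFP36. All 10 were among the 17144 genes listed in the deposited tables, and all 10 passed the filter on low counts that left 12682 genes for testing. Messenger RNA was read in 6 libraries of cells carrying the label SaOS2, a human osteosarcoma line in wide use that has osteoblast features. The titles place 3 libraries in a group C and 3 in a group D, and the series concerns treatment of the line with a compound called DDTC(I). The labels leave both letters unexplained and give no dose, time or genotype, so differences are stated as D minus C. Whether replicates came from separate cultures is not stated either, and the p-values therefore measure the spread between these libraries, which may be technical.

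Immediate early genes are switched on quickly by growth factors and by stress, because the proteins that transcribe them are already present in the cell. Serum response factor, encoded by SRF, binds the serum response elements of many of them, either with ternary complex factors that ERK phosphorylates or with the myocardin-related factors that sense actin. The EGR genes encode zinc finger transcription factors, and EGR1 is a classic target of this route. BTG2 and ZFP36 are immediate early genes as well, and the proteins of BTG1, BTG2 and ZFP36 all engage the CCR4-NOT complex, which shortens poly(A) tails.

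The libraries held between 18446443 and 20602771 counts. The D libraries stood further apart from each other than the C libraries did: chi-square per degree of freedom between pairs of libraries, which is near 1 for sampling noise alone, was 6.48 to 14.1 within C and 21.7 to 96 within D. Part of this spread lay along gene length. The slope of a library's deviation from its group mean (log2 CPM per doubling of gene length) was 0.17 in D replicate 2 and −0.18 in D replicate 3, against −0.05 to 0.05 in C. The labelled cell type was checked by its markers. The osteoblast genes ALPL (8 to 15 counts), SP7 (0 to 1) and IBSP (0 to 2) were near silent in every library. RUNX2, a transcription factor of the osteoblast lineage, was present at 19.6 ± 1.73 CPM in C and 9.14 ± 1.97 in D. The levels of ALPL, SP7 and IBSP go against the label, so the cells are named by it only. In bulk RNA, fewer cells of a type and less RNA per cell cannot be told apart.

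Of the 10 genes, 8 rose in D, 1 fell and 1 did not pass the test. The background share of tested genes called in D was 26.8% for higher and 27.7% for lower levels (adjusted p under 0.05, edgeR). EGR1, EGR3, IER5, EGR2 and IER2 rose at least 2-fold, SRF, ZFP36 and BTG1 rose by less, BTG2 fell and IER3 stayed below the threshold. The D libraries lay entirely above the C libraries for 8 of the 10 genes and entirely below for BTG2, while the groups overlapped for IER3. Over all tested genes, 30.6% had the D libraries all above and 32.1% all below. The median log2 fold change of the 10 genes was 1.25, and that of all tested genes −0.02. EGR2 and EGR3 reached the level the filter asks for, 0.512 CPM in 3 libraries, only through the D libraries. Their entry among the tested genes was therefore tied to a higher level in D, and they are 2 of the 8 that rose. The groups also differed in cell type markers, whose part in these changes was not tested. Of 7 tested osteoblast markers 5 were lower in D and 1 was higher (median log2 fold change −1.10), and the summed level of the list was 2002 to 2359 CPM in C and 718 to 807 in D. Most of that sum was the matrix gene SPARC, at 1913 ± 162 CPM in C and 682 ± 45.2 in D (−1.49 ± 0.12). The collagen genes COL1A1 (−2.23 ± 0.13) and COL1A2 (−1.82 ± 0.13) fell too, as did RUNX2 (−1.10 ± 0.17). SPP1, with 2 to 10 counts in C and 29 to 51 in D, was the higher one and reached the filter only through D. On leaving out any one C library, D replicate 1 or D replicate 3, 4 osteoblast markers were lower. Of the tested epithelial markers 2 of 3 were higher in D, with KRT18 at 71.4 ± 12.7 CPM against 38.4 ± 2.65, and the summed level of the list was 79.4 to 88.8 CPM in C and 102 to 135 in D. CDH1, the other one higher (1.87 ± 0.34), reached the filter only through D. KRT8, the remaining tested epithelial marker, did not pass (−0.06), at 43.85 ± 3.26 CPM in C and 42.18 ± 5.22 in D. Of the endothelial markers 2 of 4 were lower, with sums of 20.2 to 25.1 and 14.1 to 15.3 CPM. CDH5, the VE-cadherin gene, fell from 4.24 ± 0.522 to 0.551 ± 0.064 CPM (−2.93 ± 0.22, adjusted p = 2.43e-05 by edgeR) and reached the filter only through the C libraries. The other call, PECAM1 (log2 fold change −0.44), did not hold on leaving out C replicate 1 (−0.46), C replicate 2 (−0.28), D replicate 1 (−0.38) or D replicate 2 (−0.40). The blood cell markers summed to 478 to 499 CPM in C and 459 to 501 in D. Nearly all of that was CD68, which other cells also express, while the leukocyte gene PTPRC had 2 to 8 counts per library. No marker of these lists was at 0 in every library.

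**Figure D1:**
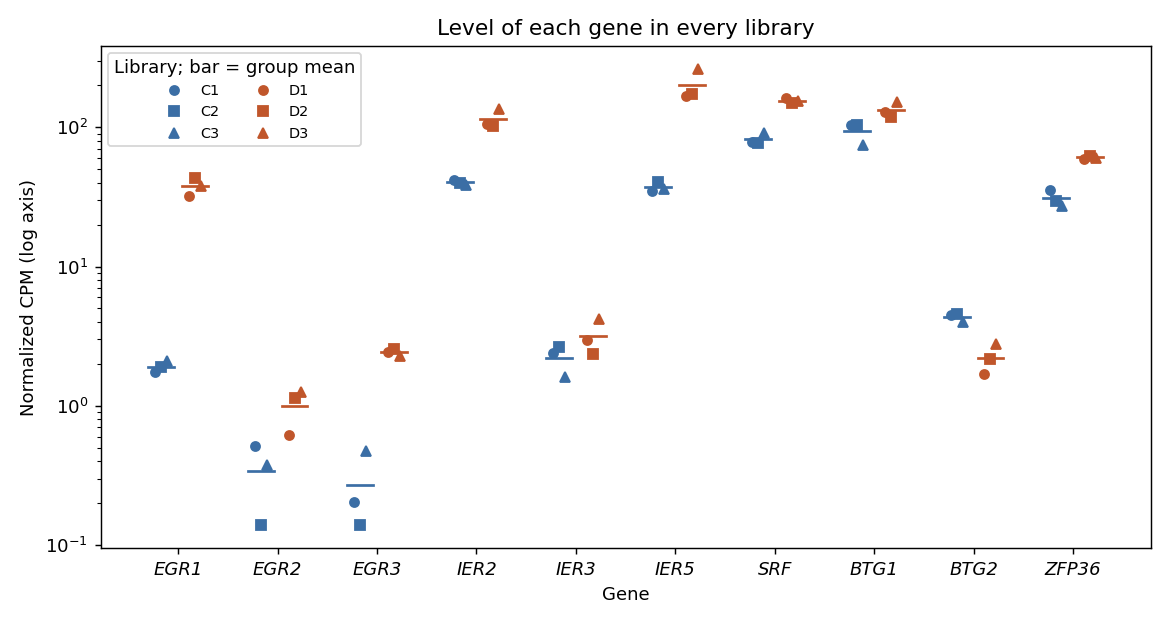
Normalized CPM (counts scaled by library total and TMM factor, log axis) of the 10 genes in each of the 3 C libraries (blue) and 3 D libraries (orange), with the group mean as a bar. EGR1 lies at 1.74 to 2.09 in C and at 32.3 to 43.3 in D, IER3 is the gene whose groups overlap, and BTG2 is the gene with every D library below every C library.

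Of the early growth response genes, EGR1 and EGR3 had the largest relative rises of the 10 genes. EGR2 rose less than IER5. EGR1 encodes the founding member of the family. It had 1.74, 1.90 and 2.09 normalized CPM (counts scaled by library total and TMM factor) in C replicates 1, 2 and 3 and 32.3, 43.3 and 37.6 in the D replicates. All D libraries were far above all C libraries, and no single library carried the difference. The log2 fold change was 4.30 ± 0.17 (SE), a 19.7-fold rise (adjusted p = 2.36e-06, quasi-likelihood test of edgeR, Benjamini-Hochberg over all tested genes). It was the 34th largest of the 12682 fold changes.

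EGR3, known for its part in muscle spindle and lymphocyte development, had 4, 3 and 10 counts in the C libraries and 43, 49 and 40 in the D libraries. The C counts were close to the 3 counts taken as a floor, whereas the D counts agreed closely with each other. The log2 fold change was 3.12 ± 0.35 (adjusted p = 0.000147), and it was 3.77 without C replicate 3, the highest of the C libraries. EGR2, a regulator of myelination, had 10, 3 and 8 counts in C and 11, 22 and 22 in D. The groups were separated by little, since C replicate 1 and D replicate 1 differed by 1 count. Its log2 fold change of 1.56 ± 0.45 passed the test (adjusted p = 0.0176), and without C replicate 2 it was 1.17 and did not (adjusted p = 0.0559). Both EGR3 and EGR2 reached the filter only through the D libraries, so their p-values are given as a description.

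Per gene length, EGR1 dominated the family in both groups. The deposited FPKM values, which divide by gene length, summed over the 3 EGR genes to 0.712 to 0.939 in C and 10.6 to 14.3 in D. EGR1 made up 78.9% ± 8.84 of that sum in C (SD, n = 3) and 93.4% ± 0.34 in D. The exact 2-sided permutation test gave p = 0.1, the smallest that 3 against 3 libraries allow. The fourth family member, EGR4, had 0 counts in every C library and at most 2 in a D library, below the floor.

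The IER genes, named for their immediate early response, split into IER2 and IER5, which rose, and IER3, which did not pass. IER2 encodes a small nuclear protein. It had 42.0, 39.6 and 38.7 CPM in C and 106, 101 and 136 in D. The C libraries were tightly grouped and D replicate 3 was the highest. This is a log2 fold change of 1.51 ± 0.13, a 2.86-fold rise (adjusted p = 5.43e-05).

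IER5 encodes a partner of protein phosphatase PP2A that acts on heat shock factor HSF1. Its 34.7, 40.3 and 36.3 CPM in C compared with 168, 173 and 262 in D. D replicate 3 again stood above the other D libraries. The log2 fold change was 2.44 ± 0.18, a 5.42-fold rise (adjusted p = 2.67e-05), and 2.21 without D replicate 3. Among 6 partner genes, HSF1 (0.42 ± 0.10) and the PP2A catalytic gene PPP2CA (0.55 ± 0.12) rose, while the scaffold gene PPP2R1B (−0.66 ± 0.10) and PPP2R2A (−0.47 ± 0.10), the B55 alpha subunit, fell. The other 2 did not pass. IER5L, a paralogue of IER5, rose from 20.7 ± 3.84 to 41.9 ± 11.1 CPM (log2 fold change 1.01 ± 0.21).

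IER3 encodes a regulator of cell survival and of ERK signalling. It had 2.41, 2.64 and 1.61 CPM in C and 2.99, 2.34 and 4.20 in D. The groups overlapped, because D replicate 2 lay below C replicates 1 and 2. Its log2 fold change, 0.51 ± 0.27, missed the threshold (adjusted p = 0.14), and the range of 2 standard errors around it ran from −0.03 to 1.06. Without D replicate 2 it was 0.73 and passed (adjusted p = 0.0376). IER3 had the shortest gene model of the 10, 1237 bp, and its highest and lowest D values were in the libraries with opposite length slopes. After removal of each library's length trend, its log2 fold change was 0.32 (adjusted p = 0.18).

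SRF, the transcription factor that drives many of these genes, had 78.9, 77.0 and 91.4 CPM in C and 161, 148 and 154 in D. The groups were well separated, with C replicate 3 the highest of C. SRF rose by 0.91 ± 0.11 on the log2 scale, or 1.88-fold (adjusted p = 0.000191).

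Of 9 tested SRF cofactor and EGR corepressor genes, 2 rose and 3 fell (median −0.25), shares of 22.2% and 33.3% that lie near those of all tested genes. FHL2, a LIM protein that binds SRF, rose from 117 ± 4.09 to 279 ± 46.8 CPM (1.26 ± 0.13). NAB2, a corepressor of EGR proteins and itself an EGR1 target, rose from 32.6 ± 2.33 to 56.4 ± 3.02 CPM (0.79 ± 0.11). Its paralogue NAB1 fell from 20.2 ± 0.626 to 11.4 ± 2.18 CPM (−0.82 ± 0.15). SCAI, a repressor of the myocardin-related factors, fell by 0.67 ± 0.16 on the log2 scale. MRTFB, one of those factors, had a log2 fold change of −1.03 ± 0.34 that fell short of the threshold on leaving out C replicate 1 (−1.03), C replicate 3 (−0.88) or D replicate 1 (−0.99). MRTFA and the ternary complex factor genes ELK1, ELK3 and ELK4 did not pass, with log2 fold changes of −0.09, −0.26, −0.25 and 0.15.

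Of 26 tested actin cytoskeleton genes known as SRF targets, 10 rose (38.5%) and 5 fell (19.2%), against 26.8% and 27.7% of all tested genes. The median of the list was 0.16, and 0 of the rises reached 2-fold. PDLIM7 (0.95 ± 0.14), TGFB1I1 (0.81 ± 0.11) and the focal adhesion gene ZYX, from 300 ± 24.7 to 503 ± 25.5 CPM (0.75 ± 0.11), rose most. The matricellular gene CCN1 fell from 848 ± 56.1 to 342 ± 4.71 CPM (−1.31 ± 0.10), CCN2 by 0.73 ± 0.12 and the smooth muscle actin gene ACTA2 by 0.70 ± 0.12. CCN1 and CCN2 are equally known as targets of YAP and TEAD.

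BTG1 and BTG2, antiproliferative relatives, moved apart. BTG1 had 103, 104 and 74.2 CPM in C and 128, 117 and 152 in D. C replicate 3 was the lowest and D replicate 3 the highest, and the gap between the groups was small. The log2 fold change of 0.50 ± 0.16 passed the test (adjusted p = 0.025). It was not called without C replicate 3 (0.36, adjusted p = 0.0848) or without D replicate 1 (0.53, adjusted p = 0.0609), nor with libraries scaled by size only (0.35, adjusted p = 0.0787).

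BTG2, which restrains entry into the cell cycle, was the only one of the 10 genes to fall. It had 4.51, 4.58 and 4.03 CPM in C and 1.69, 2.19 and 2.78 in D. The log2 fold change was −0.98 ± 0.20, so that the level was 1.97-fold lower in D (adjusted p = 0.0036). The FPKM of BTG1 was 10.9 to 13.5 times that of BTG2 in the C libraries and 31.7 to 44.5 times in the D libraries (exact 2-sided permutation p = 0.1, the smallest possible). In the same family BTG3 fell from 30.9 ± 2.15 to 19.98 ± 3.51 CPM (−0.63 ± 0.15), while TOB1 (−0.04) and TOB2 (−0.15) did not pass.

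ZFP36 encodes tristetraprolin, which binds AU-rich elements of messages and brings them to decay. It had 35.6, 29.7 and 27.3 CPM in C and 59.5, 62.5 and 60.4 in D. The coefficient of variation was 2.53% in D and 13.8% in C. ZFP36 rose by 0.98 ± 0.12 on the log2 scale, or 1.97-fold (adjusted p = 0.000284). Of its paralogues, ZFP36L2 did not pass (−0.09). ZFP36L1 was called lower (−0.41 ± 0.15) but not without C replicate 1 (−0.29), C replicate 2 (−0.44) or D replicate 1 (−0.38).

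Messages known as ZFP36 targets were counted next. Of 12 tested, 9 were called higher (75%), all of them at least 2-fold, and 1 lower (8.33%), with a median of 2.31. The shares of all tested genes were 26.8% and 27.7%. CXCL2, CCL3, IL23A and PTGS2, 4 of the 9, reached the filter only through the D libraries, so they could enter the count only with a higher level in D and it is given as a description. The chemokine genes CXCL8 (4.24 ± 0.15), CXCL2 (3.997 ± 0.28) and CXCL3 (3.63 ± 0.19) rose most. In CPM, CXCL8 went from 2.13 ± 0.247 to 40.3 ± 3.13. IL6, with 19 to 20 counts in C and 122 to 153 in D, and VEGFA (2.01) were others that rose. PIM1, a kinase gene, was the one that fell (−0.38 ± 0.13), a call that did not hold on leaving out C replicate 1 (−0.29), C replicate 2 (−0.38) or D replicate 2 (−0.34). TNF, the best known target, had 0 to 2 counts in C and 3 to 8 in D and was not tested.

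The BTG and ZFP36 proteins engage a deadenylase. Of 15 genes of the CCR4-NOT complex and of poly(A) proteins, 3 rose and 4 fell (median −0.01), or 5 and 5 with length trends removed. The main counts are shares of 20% and 26.7%, near the 26.8% and 27.7% of all tested genes. CNOT10 (1.08 ± 0.11) and CNOT4 (0.82 ± 0.19) rose, and the deadenylase genes PAN2 (−1.34 ± 0.14), CNOT6L (−1.18 ± 0.22) and CNOT6 (−0.64 ± 0.17) fell. The deadenylase genes CNOT7 (0.08) and CNOT8 (−0.04) did not pass, nor did PAN3 (0.30). The call of CNOT6 was lost without D replicate 1 (−0.59). PABPC4 was called higher (0.32 ± 0.09), but not without C replicate 1 (0.29), C replicate 2 (0.34) or C replicate 3 (0.34).

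**Figure D2:**
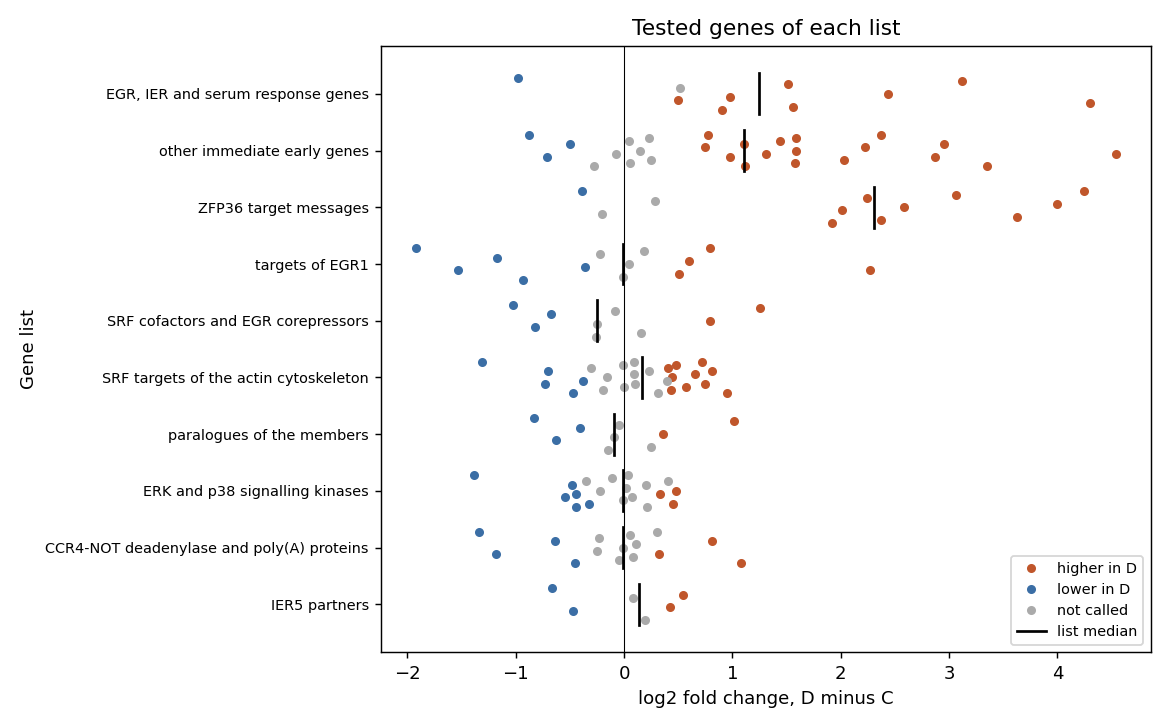
Log2 fold change (D minus C) of the tested genes in the lists named on the axis, coloured by its call at an adjusted p under 0.05, with the list median as a black line; cell type marker lists are not drawn. The medians of the 10 genes (1.25), the other immediate early genes (1.11) and the ZFP36 target messages (2.31) lie to the right, and those of the other lists drawn run from −0.25 to 0.16. For 2 of the 10 genes and 4 of the ZFP36 target messages, entry depended on their level in D.

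Other immediate early genes were counted for comparison. Of 27 tested, 17 rose (63%), 14 of them at least 2-fold, and 3 fell (11.1%), with a median of 1.11. Of all tested genes, 26.8% rose and 27.7% fell. The AP-1 genes FOS, from 2.79 ± 0.232 to 65.0 ± 12.2 CPM (4.54 ± 0.18), and FOSB (3.35 ± 0.17) and the stress-induced factor gene ATF3 (2.96 ± 0.13) rose most. PER1 (−0.88 ± 0.17), KLF6 (−0.71 ± 0.17) and PHLDA1 (−0.50 ± 0.09) fell. PTGS2 is in this list as well and reached the filter only through D. Of 13 genes often given as EGR1 targets, 4 rose and 5 fell (median −0.01), shares of 30.8% and 38.5% against 26.8% and 27.7% of all tested genes, with GDF15 (2.27 ± 0.18), NAB2 and PDGFA (0.60 ± 0.15) rising and PDGFB (−1.53 ± 0.24) and THBS1 (−1.17 ± 0.19) among those falling.

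**Figure D3:**
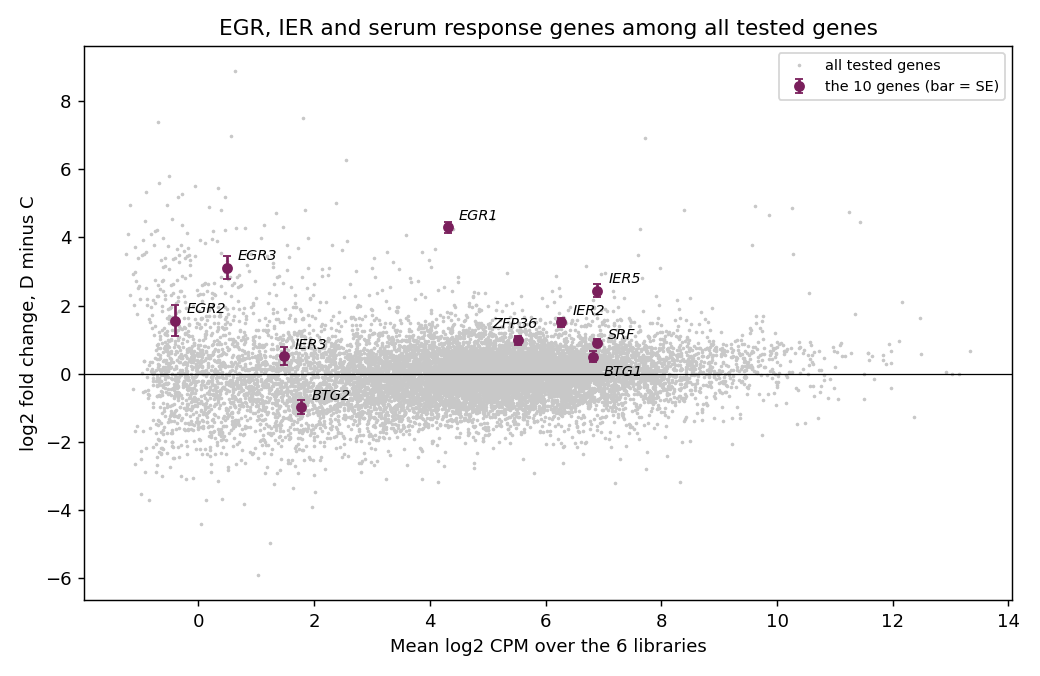
Log2 fold change (D minus C) against mean log2 CPM over the 6 libraries for 12682 tested genes (grey), with the 10 genes marked and their standard errors as bars. EGR1 stands at 4.30, while BTG1 (0.50) and IER3 (0.51) lie within the grey mass. Of all tested genes, 10% had a higher log2 fold change than SRF and 8.87% a higher one than ZFP36, and 10.7% had a lower one than BTG2.

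Levels of different genes were compared by FPKM only. In C, BTG1 (21.3 ± 3.75), SRF (20.3 ± 2.003), IER2 (20.02 ± 0.819) and ZFP36 (18.6 ± 2.54) were the most abundant, and each overlapped its neighbour in this order. IER5 followed with 9.30 ± 0.699, apart from both neighbours. IER3 (1.89 ± 0.452) and BTG2 (1.69 ± 0.109) overlapped, EGR1 stood alone at 0.641 ± 0.060, and EGR2 (0.115 ± 0.063) and EGR3 (0.062 ± 0.041) overlapped at the bottom. In D the order began with IER2 (51.3 ± 6.68) and IER5 (45.1 ± 10.4), which overlapped. SRF (34.2 ± 1.64) and ZFP36 (33.0 ± 1.57) overlapped next, followed by BTG1 (27.1 ± 2.75). EGR1 reached 11.4 ± 1.80, IER3 2.42 ± 0.640, BTG2 0.768 ± 0.168, EGR3 0.497 ± 0.044 and EGR2 0.301 ± 0.097, each apart from the next. EGR1 was below SRF, IER2, IER5, BTG1 and ZFP36 in D even after the largest relative rise of the 10.

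The genes whose pattern was nearest to a given gene were found by Euclidean distance over the 6 libraries, in log2 CPM less the C mean, among the 9546 other genes whose mean log2 CPM was 3 or more. For EGR1 they were CXCL8 (distance 0.483), the splicing factor gene ESRP1 (0.502) and ZFAND2A (0.658), an arsenite-inducible gene. ZNF408, CTSD and PAX8 were nearest to IER2 (0.114 to 0.128), and SLC66A1, NECAP1 and ARFGAP2 to SRF (0.0947 to 0.14). TBL1XR1, TRIQK and PBK were nearest to BTG2 (0.222 to 0.276), and KCNN3, ELL and VTI1A to ZFP36 (0.183 to 0.213).

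**Figure D4:**
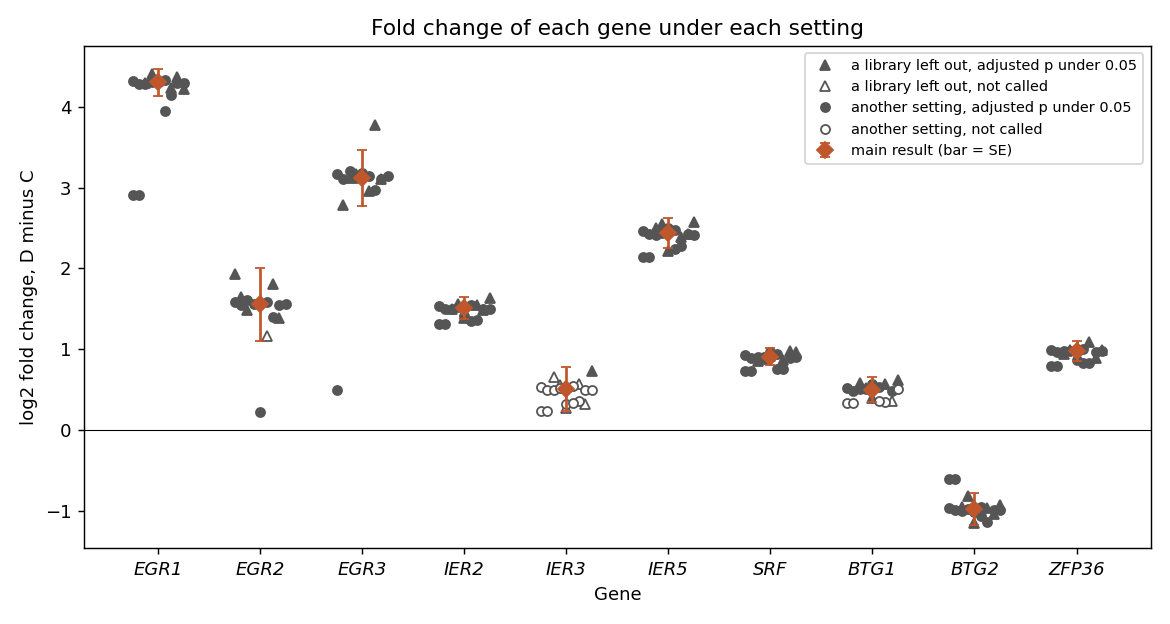
Log2 fold change (D minus C) of the 10 genes in the main result (orange, bar = SE), with another setting (circles) and with a library left out (triangles); open symbols did not pass an adjusted p of 0.05. EGR1, EGR3, IER2, IER5, SRF, ZFP36 and BTG2 have filled symbols only, whereas BTG1, IER3 and EGR2 have both kinds, and no symbol crosses zero.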

How the data were processed

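Tables of 6 libraries were used, 3 per group, grouped by the letter (C or D) of their titles. The deposited counts are raw whole numbers per gene symbol. The FPKM values the authors deposited beside them each equalled the count divided by the library total and by 1 gene length per gene, for 17144 of 17144 genes (relative tolerance 0.001). Per the labels' protocols, column-purified RNA was used for the libraries. How reads were aligned and counted, and whether by strand, is not given in the sources used here, so reads shared with antisense or overlapping genes cannot be separated. The labels name the mouse and, per the submitters' processing notes, the builds GRCm38 and mm10, while the symbols follow human naming. The reference supplied was of the mouse, so no sequences or coordinates are given.

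The count test was that of edgeR 4.0.16, run under R 4.3.3. Genes passed filterByExpr (minimum count 10), libraries were scaled by TMM, and the 2-sided quasi-likelihood F test with group as its only term was adjusted by Benjamini-Hochberg over all tested genes. The standard error is the size of the log2 fold change divided by the square root of F. CPM and FPKM are given as mean ± SD, n = 3. A floor of 3 counts is 0.139 to 0.17 CPM and covers counting error only. Alternatives were DESeq2 1.42.0, limma 3.58.1 as voom on counts and with a trend on FPKM (pseudocount 1 or 0.1), other scalings, filters and thresholds, a replicate block, removal of length trends by lowess (span 0.4), and each library left out. The genes and lists were chosen with earlier results of these data known. Named are the 10 genes, up to 3 called genes with the largest change per direction and list, and the 3 genes nearest in pattern to EGR1, IER2, SRF, BTG2 and ZFP36. IL6, VEGFA, TNF, EGR4, genes named as not passing, ALPL, SP7, IBSP, RUNX2, CCL3, IL23A, PTGS2 and PTPRC were named outside this rule, after their values were seen. Some results that the rule names are not reported here.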

Additional observations from a re-analysis of the deposited data

How the results depend on the processing

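Of 19 alternatives, 19 left the direction and the call of EGR1, IER2, IER5, SRF, BTG2 and ZFP36 as they were, and EGR3 kept both in the 17 in which it was tested. BTG1 was not called in 8 of 19, EGR2 in 2 of 16, and IER3 was called in 1 of 19, and none of the 10 genes reversed. With limma-trend on filtered FPKM, 5 of 8 tested genes were higher at either pseudocount, since EGR2 and EGR3 failed the filter and BTG1 was not called (0.34 with log2(FPKM + 1), 0.36 with log2(FPKM + 0.1)). Over all genes these fits called 2213 (pseudocount 1) and 2209 (pseudocount 0.1) higher, against 3393. Scaling by library size only moved the median log2 change of all genes from −0.02 to −0.17 and gave 2586 genes higher and 4449 lower, in place of 3393 and 3509. With length trends removed these were 4169 and 3854. With log2(FPKM + 1) and no filter the fold changes of low genes shrank, to 0.22 for EGR2 and 0.50 for EGR3. Of 1182 values for 63 other genes that the naming rule picked, not all of them printed here, 79 lost their call and 0 reversed. Same-numbered C and D libraries had correlations of their deviations of 0.01, −0.40 and −0.37, and no library correlated best with its own number. The deviations also followed gene length, with slopes of opposite sign in D replicates 2 and 3. These correlations therefore cannot decide whether the replicate numbers pair the samples. With a replicate block, 2694 genes were higher and 2977 lower, 7 of the 10 genes were higher, BTG1 was not called (0.51, adjusted p = 0.0633), and 6 of the actin cytoskeleton genes were higher, against 10. Depth limited EGR2 and EGR3 most, with 7 and 5.67 counts on average in C.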

Other observations

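The ERK and p38 routes lie upstream of the serum response elements. Of 19 tested kinase genes of these routes, 3 rose (15.8%) and 6 fell (31.6%), against 26.8% and 27.7% of all tested genes, with a median log2 fold change of −0.01. The ribosomal S6 kinase gene RPS6KA1 fell from 33.0 ± 3.44 to 12.6 ± 0.733 CPM (−1.39 ± 0.13), and the ERK1 gene MAPK3 from 74.1 ± 2.42 to 50.9 ± 4.71 CPM (−0.54 ± 0.11). The MEK1 gene MAP2K1 rose from 83.6 ± 2.70 to 116 ± 5.55 CPM (0.48 ± 0.10). The calls of ARAF (0.33) and MAP2K2 (0.45) were lost when any one of the C libraries or D replicate 1 was left out, with values of 0.31 to 0.35 and 0.41 to 0.49. Without D replicate 3, 5 of the kinase genes were higher, and with length trends removed 6 were. On leaving out any one C library or D replicate 1, 1 was higher and 3 were lower. Message levels do not report the activity of these kinases.

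Among the MEF2 genes, relatives of SRF that share its DNA-binding MADS box, MEF2C fell from 9.23 ± 0.974 to 5.19 ± 1.16 CPM (−0.83 ± 0.18). MEF2D was called higher (0.36 ± 0.09), but not without C replicate 2 (0.34) or with libraries scaled by size only (0.21). MEF2A did not pass (0.24). Of the 9 paralogues tested over all families, 2 rose and 3 fell. These shares of 22.2% and 33.3% lie near the 26.8% and 27.7% of all tested genes.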
